A study of Mus musculus with 8 samples.

Results

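The 6 genes described here, Eva1a, Timd4, Tmc7, Yes1, Fscn1 and Col14a1, were nearly off in 1 of 2 kinds of mononuclear phagocyte and on in the other. They were picked for this from the same deposited values. In bone-marrow macrophages 5 were almost absent, or low in the case of Fscn1, and these were present in wild-type microglia. Col14a1 had the opposite pattern. All 6 were present among the 23413 gene symbols of the deposited table, and all 6 passed the filter on low values that left 11415 genes for testing. Because the levels in bone-marrow macrophages and wild-type microglia chose the genes, those levels are given as a description. The repopulating microglia were not used in that choice, and the question asked is where they stood.

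The mouse libraries comprised 3 of bone-marrow macrophages, 2 of wild-type microglia and 3 of repopulating microglia. The strain label was DTR for wild-type microglia and DTRmg for both other groups, so strain cannot be told apart from group in any comparison with wild type. All samples carry the same protocol text: tamoxifen (2 mg, subcutaneous) on days 12 and 14 after birth, diphtheria toxin at 500 ng into the peritoneum to remove microglia, then dissociation of the brain with papain, Percoll enrichment and flow sorting. The labels do not name the cell type that carries the toxin receptor or the Cre driver, the sort gates, the age at collection, whether the wild-type mice received the toxin, or whether the bone-marrow macrophages came from brain or marrow. Value columns for the last group were named mono and were assigned to it by exclusion. Nothing in the labels says that each replicate is its own animal, and p-values here measure only how far these libraries spread, which can be technical.

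Microglia are the macrophages of the brain parenchyma and are seeded before birth, whereas macrophages derived from bone marrow arise from haematopoietic stem cells. When microglia are depleted the niche can be refilled by surviving microglia or by cells from the blood, and genes that are silent in one of these sources help to tell them apart. The 6 genes belong to no common pathway. Eva1a encodes a membrane protein of the endoplasmic reticulum and lysosome linked to autophagy. Timd4 encodes TIM-4, a macrophage receptor for the phosphatidylserine exposed by dying cells. Tmc7 belongs to the transmembrane channel-like family, Yes1 is a Src family tyrosine kinase, Fscn1 encodes fascin, which bundles actin filaments in filopodia, and Col14a1 encodes collagen XIV, which decorates the surface of collagen fibrils.

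Start-site sequence was matched for 5 of the 6 genes in the RefSeq table (GRCm38.p6), all 5 being genes on in wild-type microglia. They are shown because they lie just before the RefSeq starts of genes that were all low or absent in bone-marrow macrophages. Whether these cells use those starts, or whether the stretches regulate the genes, was not tested. Each line gives 100 bases, 5′ to 3′ on the gene's strand, ending 1 base before the RefSeq start (31 bases before it for Tmc7). Capitals mark TGACGTCA and TATAAA in Fscn1, TGACGTCA alone in Tmc7, CACGTG and GGGCGG in Eva1a, GGGCGG on either strand in Yes1 and GGAAGT in Timd4.
Fscn1: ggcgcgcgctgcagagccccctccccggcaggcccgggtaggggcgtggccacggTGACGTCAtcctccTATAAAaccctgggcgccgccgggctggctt
Tmc7: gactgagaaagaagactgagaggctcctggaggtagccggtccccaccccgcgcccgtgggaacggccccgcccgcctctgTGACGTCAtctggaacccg
Eva1a: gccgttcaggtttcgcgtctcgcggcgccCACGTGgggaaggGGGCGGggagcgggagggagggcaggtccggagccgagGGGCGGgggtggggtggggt
Yes1: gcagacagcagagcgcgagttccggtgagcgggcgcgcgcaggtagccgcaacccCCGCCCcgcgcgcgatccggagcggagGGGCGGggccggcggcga
Timd4: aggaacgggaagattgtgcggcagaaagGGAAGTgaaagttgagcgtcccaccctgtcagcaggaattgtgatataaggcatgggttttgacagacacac
The stretches lie at chr5:142960255-142960354 (plus strand) for Fscn1, chr7:118584717-118584816 (minus) for Tmc7, chr6:82041528-82041627 (plus) for Eva1a, chr5:32611071-32611170 (plus) for Yes1 and chr11:46810699-46810798 (plus) for Timd4. The Eva1a stretch lies inside the first intron of a longer GENCODE transcript. The cAMP response element TGACGTCA stood at bases -45 to -38 in Fscn1 and at -49 to -42 in Tmc7. It was found in 2 of the 5 windows of 300 bases (250 before to 50 after the start, both strands) and in 1.79% of 32851 such windows of all genes. The GC box GGGCGG was found in Yes1, Eva1a and Tmc7 and in 35.7% of all windows, and the ETS core GGAAGT in Eva1a and Timd4 and in 23.8%. The PU.1-type ETS site GAGGAAGT, which contains GGAAGT, and the AP-1 site TGANTCA were not found in these 5 windows, against 3.20% and 7.81% of all windows. TATAAA was found in Fscn1 and in 13.6% of all windows, and CACGTG in Eva1a and in 7.15%. Also searched were the RUNX site TGTGGT, found in Yes1 and in 16.8% of all windows, and CCAAT, found in Timd4 and in 37.4%. Both of these matches lie outside the stretches shown. The motifs were picked after the sequences had been seen, and each match is a description of letters. GC content of the 300 bases was 77.0% in Yes1, 68.3% in Tmc7, 64.0% in Eva1a, 61.7% in Fscn1 and 50.7% in Timd4, against a median of 52.7% over all windows.

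Libraries held 5918944 to 12476427 reads in genes. Values are normalised counts, the authors' gene counts divided by 1 size factor per library, and 1 read was worth 0.568 to 1.48 normalised counts. Summed markers of microglia, all 10 of which had reads in every library, came to 448792 and 401136 normalised counts in wild-type, 291139 to 338154 in repopulating microglia and 80633 to 89963 in bone-marrow macrophages, so that the last group was not free of them. Several lists for other cells held markers with both wild-type libraries above all bone-marrow macrophage libraries, as for the 5 genes on in wild type. This held for all 8 neutrophil markers, which had reads in every library of both groups and summed to 27760 and 25330 against 767 to 1284. It held for 4 of 7 monocyte markers, all with reads in every library, and the sums were 7123 and 5107 against 1479 to 2217. It held for 7 of 8 mature dendritic cell markers, which summed to 474.4 and 465.7 against 81.8 to 102.9, none of them at 0 throughout. Of 6 astrocyte markers, all with reads in every library of these groups, 2 were above in this way and 1 (Aldh1l1) below. Their sums were 1072 and 6441 against 70.5 to 106, of which Slc1a3 alone made up 987 and 6365 in wild type. In repopulating microglia these 4 lists stood at 1573 to 2969, 627 to 1737, 74.9 to 110.5 and 242 to 2140. Their part in the results was not tested. In sorted bulk RNA, fewer cells of a type and less RNA per cell cannot be told apart.

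Eva1a (GRCm38 chromosome 6, 82041043 to 82093099, plus strand, 3 exons in its longest GENCODE vM21 transcript) had no read in any bone-marrow macrophage library. Wild-type microglia held 203.0 and 166.7 normalised counts, from 190 and 164 reads. Repopulating microglia held 51.002, 23.6 and 80.6 in replicates 1 to 3, from 54, 16 and 70 reads. All repopulating libraries thus lay above the empty group and below both wild-type libraries. With 3 reads over the bone-marrow group as the floor (0.782 normalised counts), the wild-type mean of 185 ± 25.6 (SD, n = 2) was at least 236-fold higher, and the repopulating mean of 51.7 ± 28.5 (SD, n = 3) was at least 66.2-fold higher. Among 60 genes on in wild type and near absent in bone-marrow macrophages, defined further on, Eva1a was the single one with 0 reads in the latter. An antisense gene, Gm15864, overlaps an exon of Eva1a, and as the library kit does not mark strand its reads cannot be told apart from those of Eva1a.

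Timd4 (chromosome 11, 46810800 to 46844332, plus strand, 9 exons) was also without a read in the bone-marrow macrophages, but its level elsewhere was low. Wild-type microglia held 31.0 and 26.4 normalised counts, and repopulating microglia 9.44, 10.3 and 13.8. The reads behind these values were 29 and 26 in wild-type and 10, 7 and 12 in repopulating libraries. The 2 groups did not overlap. Against the floor of 3 reads, Timd4 was at least 36.7-fold higher in wild-type and at least 14.3-fold higher in repopulating microglia. With 7 to 12 reads in each repopulating library, Timd4 had the fewest reads of the 6 genes in that group. TIM-4 is often used to mark long-lived tissue macrophages, including some at the borders of the brain. The 9 markers of border-associated macrophages summed to 15127 to 18049 in bone-marrow macrophages, 4165 to 6423 in repopulating and 2612 and 3190 in wild-type microglia, with 8, 8 and 9 of them having reads in every library of the group. Mrc1 and Stab1 made up most of these sums. In 5 of the 9 (Mrc1, Pf4, Cbr2, Stab1 and Folr2) all bone-marrow macrophage libraries lay above both wild-type libraries, in Cd163 they lay below, and in 3 the groups overlapped. Lyve1, among those 3, stood at 4.55 to 9.55 in bone-marrow macrophages, 7.48 and 17.3 in wild-type and 18.9, 4.43 and 44.9 in repopulating microglia. The part of such cells in the Timd4 values was not tested.

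Tmc7 (chromosome 7, 118535841 to 118584736, minus strand, 16 exons) had 1, 2 and 0 reads in bone-marrow macrophages 1 to 3, which came to 0.568, 2.12 and 0 normalised counts. Wild-type microglia held 267 and 311. Repopulating microglia held 249, 108 and 301, so replicate 3 lay between the wild-type libraries and replicate 2 well below both. Per size-adjusted depth, the ratio of reads in wild-type microglia to those in bone-marrow macrophages was 370.5 (exact 95% interval for counting error 126 to 1802), and that of repopulating microglia was 294 (99.99 to 1428). No other gene of the table was as low as Tmc7 in bone-marrow macrophages and as high in wild type. The same held for Eva1a and, with the groups reversed, for Col14a1. These are the levels that chose the genes, so this is a description.

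Yes1 (chromosome 5, 32611171 to 32687057, plus strand, 12 exons) had 1, 0 and 1 reads in the bone-marrow macrophages. The wild-type libraries held 158 and 166 reads, which came to 168.8 normalised counts in each. Repopulating microglia held 119, 78.2 and 103.7, all below both wild-type libraries, and their spread was the narrowest in absolute terms among Eva1a, Tmc7 and Yes1 (SD 20.6 against 28.5 and 99.9). The ratio of reads to bone-marrow macrophages was 324 for wild-type (88.9 to 2685, exact 95%) and 198 for repopulating microglia (54.3 to 1644). The antisense gene Gm15614 and the gene model Gm10461 overlap exons of Yes1 on the other strand.

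Fscn1 (chromosome 5, 142960343 to 142973185, plus strand, 5 exons) was the most abundant of the genes per exon length, at 208 ± 50.7 reads per kilobase of exon, scaled to library depth (RPKM), in wild-type microglia. On the same scale Eva1a stood at 8.28 ± 0.834, Tmc7 at 6.33 ± 0.922, Yes1 at 2.83 ± 0.108 and Timd4 at 1.66 ± 0.123 (SD, n = 2). Fscn1 was low rather than absent in bone-marrow macrophages, with 65.9, 78.5 and 82.0 normalised counts from 116, 74 and 93 reads, which was 1.52% of the wild-type mean. Wild-type microglia held 4238 and 5684 normalised counts. Repopulating microglia held 1373, 1073 and 3568, with replicate 3 well above replicates 1 and 2 yet under both wild-type libraries. Fascin is also abundant in mature dendritic cells. The summed markers of such cells stood at 474.4 and 465.7 in wild-type microglia, where Fscn1 was highest, and at 81.8 to 102.9 in bone-marrow macrophages. In repopulating replicates 1 to 3 the sums were 110.5, 98.9 and 74.9. The part of such cells in the Fscn1 values was not tested. The repopulating mean of Fscn1 was 26.6-fold that of bone-marrow macrophages.

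Col14a1 (chromosome 15, 55307750 to 55520803, plus strand, 48 exons) had the opposite pattern. Bone-marrow macrophages held 1546, 1653 and 1437 normalised counts, wild-type microglia 12.8 and 8.13 from 12 and 8 reads, and repopulating microglia 52.9, 94.5 and 18.4 from 56, 64 and 16 reads. All 3 repopulating libraries lay above both wild-type libraries and far below the bone-marrow macrophages, whose mean of 1545 ± 108 (SD, n = 3) was 147-fold the wild-type mean and 28.0-fold the repopulating mean. Collagen genes are best known from fibroblasts. The 10 markers of fibroblasts and vessel-wall cells summed to 19.4 to 22.7 in bone-marrow macrophages, 361 and 544 in wild-type and 58.6 to 284 in repopulating microglia. The endothelial genes Pecam1 (276 and 362) and Cldn5 (54.5 and 123) made up most of the wild-type sums. Of the fibroblast genes, Col3a1 and Pdgfra were at 0 in all 3 bone-marrow macrophage libraries, and Col1a1 did not exceed 3.46 in any of the 8. The antisense gene 1700040F17Rik overlaps an exon of Col14a1.

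**Figure D1:**
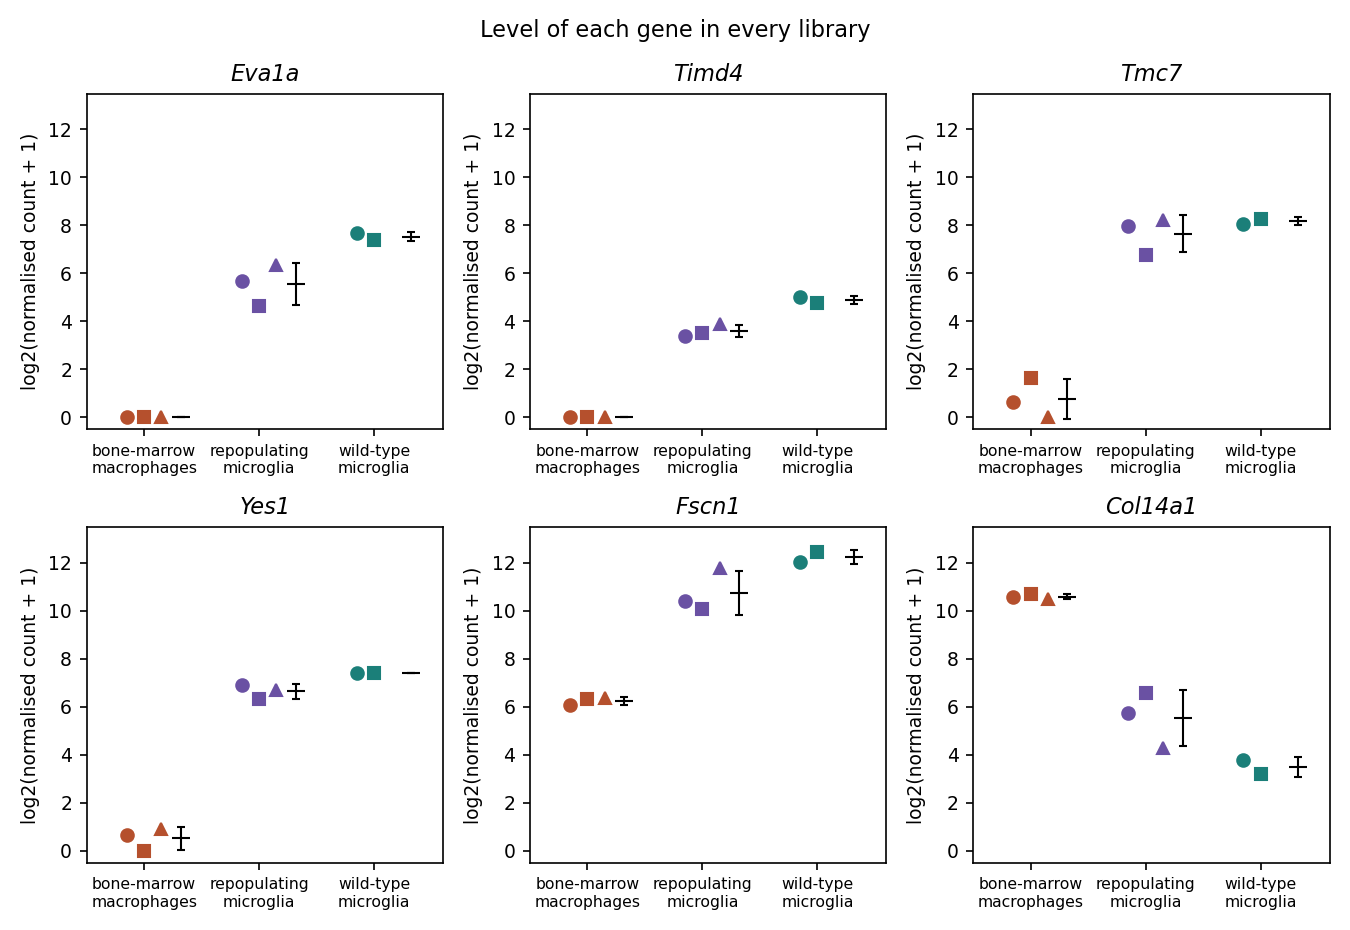
Level of each gene as log2(normalised count + 1) on the vertical axis, with circles, squares and triangles for replicates 1, 2 and 3 and a bar for the mean ± SD beside each group. Repopulating microglia lie between both other groups for Eva1a, Timd4, Yes1, Fscn1 and Col14a1, and for Tmc7 replicate 3 lies between the wild-type libraries.

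The comparison of repopulating microglia with bone-marrow macrophages is not crossed by strain, as both carry the label DTRmg. The comparison that chose the genes, bone-marrow macrophages against wild type, passed for 43.5% of all genes (21.3% higher and 22.2% lower in bone-marrow macrophages), and nothing is read from it here. All 6 genes differed past the threshold of an adjusted p of 0.05 (limma on log2(normalised count + 1), Benjamini-Hochberg adjustment over all 11415 genes). Of all genes, 30.9% passed in this comparison, 16.0% higher and 14.9% lower in repopulating microglia. The count of 6 carries little by itself, since the genes near 0 in bone-marrow macrophages could hardly be lower elsewhere; the size of the repopulating level is what was free to vary. On the log2 scale, which understates changes of low values and depends on the added 1, the difference was 6.89 ± 0.49 for Tmc7 (SE, adjusted p = 3.47e-05) and 6.12 ± 0.32 for Yes1 (adjusted p = 1.24e-05). It was 5.56 ± 0.44 for Eva1a (adjusted p = 4.92e-05), 4.51 ± 0.38 for Fscn1 (7.32e-05) and 3.59 ± 0.42 for Timd4 (0.000362). Col14a1 was lower, at -5.06 ± 0.49 (adjusted p = 0.000136). The groups did not overlap in any of the 6, nor in 46.0% of all genes tested.

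Against wild-type microglia, the differences were smaller. Eva1a was lower by this test, at log2 -1.97 ± 0.49 (SE), or 28.0% of the wild-type mean (limma adjusted p = 0.0433). The other 5 did not pass: Tmc7 stood at -0.52 ± 0.55 (adjusted p = 0.574), Yes1 at -0.77 ± 0.36 (0.214), Timd4 at -1.30 ± 0.47 (0.123), Fscn1 at -1.50 ± 0.43 (0.0677) and Col14a1 at 2.05 ± 0.55 (0.0536). Because Col14a1 was chosen for its low wild-type level, it could hardly be lower elsewhere, and its direction and calls against wild type carry little by themselves. The other genes were chosen as on in wild type, which favours a lower level elsewhere. That limit also applies to the call for Eva1a. In this comparison 8.61% of all genes passed, 4.86% higher and 3.75% lower in repopulating microglia. With libraries scaled to equal totals, the calls over all genes split into 442 higher and 726 lower, against 555 and 428 as deposited, and against bone-marrow macrophages into 1172 and 2924, against 1826 and 1700. That scaling moved the median log2 difference of all genes to -0.125 and -0.245, and all 12 directions of the 6 genes stayed.

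The call for Eva1a was lost without any one of 7 libraries: all 3 of bone-marrow macrophages, both of wild type and repopulating replicates 1 and 2 (adjusted p = 0.0587 to 0.291), and also with edgeR on the reads (0.0537). It held without repopulating replicate 3. Without that library Col14a1 and Fscn1 passed as well, at log2 2.67 and -2.01 (limma adjusted p = 1.86e-05 and 8.34e-06), so that 3 of the 6 were called, in a fit that called 26.2% of all genes. The groups did not overlap for 5 of the 6, all but Tmc7, nor for 40.4% of all genes tested, and with 3 against 2 libraries an exact permutation test of a single gene could not give a p under 0.05.

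**Figure D2:**
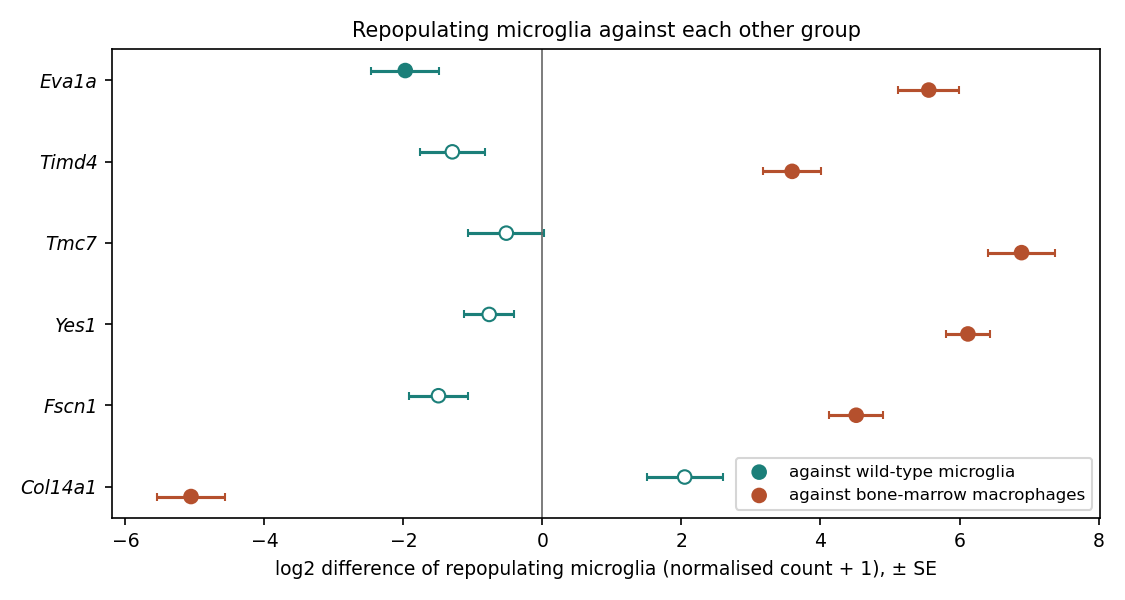
Log2 difference of repopulating microglia from each other group, with its SE; filled points passed an adjusted p of 0.05 and open points did not. Differences from bone-marrow macrophages run from -5.06 to 6.89, and those from wild-type microglia from -1.97 to 2.05.

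The repopulating level can also be placed on the linear scale, with 0% at the mean of the group where the gene was nearly off and 100% at the mean of the group where it was on. Tmc7 lay at 75.8% and Yes1 at 59.3% of the way. Fscn1, Timd4 and Eva1a lay lower, at 39.5%, 39.0% and 28.0%. Col14a1 lay at 2.92%, next to the wild-type level. On this linear scale, measured from bone-marrow macrophages toward wild type, the 6 genes ran from 28.0% for Eva1a to 97.1% for Col14a1. These places depend on the scale, and both their spread and their order can differ on a log2 scale. A gene nearly off in wild type lies near 100% even when it is several-fold above wild type. The repopulating mean of Col14a1 was 5.27-fold its wild-type mean.

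Repopulating replicates differed among themselves in a similar order across genes. Replicate 2 was the lowest for Eva1a, Tmc7, Yes1 and Fscn1 and the highest for Col14a1, and replicate 3 was the highest for Eva1a, Timd4, Tmc7 and Fscn1 and the lowest for Col14a1. In Yes1 replicate 1 was the highest, and in Timd4 replicate 1 was the lowest, the reads there being 10, 7 and 12. The highest library exceeded the lowest by 5.13-fold for Col14a1, 3.41-fold for Eva1a, 3.33-fold for Fscn1 and 2.79-fold for Tmc7, against 1.52-fold for Yes1 and 1.46-fold for Timd4. Replicate 2 was also the shallowest library, at 5918944 reads. Summed microglia markers were lowest in it (291139) and border-associated macrophage markers highest (6423), while replicate 3 had the highest sums of astrocyte (2140) and fibroblast and vessel-wall (284) markers among the repopulating libraries. Whether these bear on the order was not tested.

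**Figure D3:**
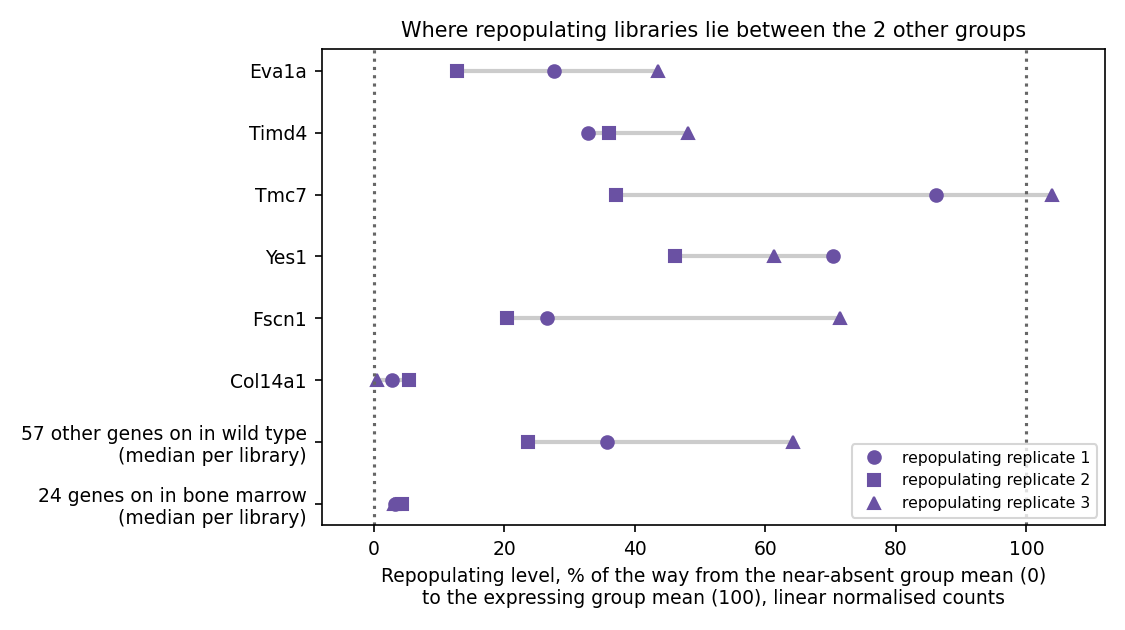
Repopulating level of each gene in each library, as a percentage of the way from the mean of the near-absent group to the mean of the expressing group, with medians over other genes of the same kind in the lowest 2 lines. Tmc7 in replicate 3 lies at 104%, Eva1a in replicate 2 at 12.8% and Col14a1 between 0.518% and 5.47%.

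To see how common such genes were, all genes were listed that had a mean under 10 normalised counts in bone-marrow macrophages or wild-type microglia and at least 100 in the other, with no overlap. There were 60 on in wild type and 24 on in bone-marrow macrophages. Eva1a, Tmc7 and Yes1 were among the 60. Timd4 missed the level of 100, Fscn1 was above 10 in bone-marrow macrophages and Col14a1, at 10.5 ± 3.31 in wild type, was just above it there. Over the 57 other genes on in wild type, the repopulating mean lay at a median of 38.2% of the way to the wild-type level, with quartiles of 23.2% and 74.3%, so that Eva1a, Timd4, Fscn1 and Yes1 fell between these quartiles and Tmc7, at 75.8%, just above the upper one. Replicate 2 was the lowest repopulating library in 44 of the 57 and replicate 3 the highest in 45, with medians of 35.8%, 23.6% and 64.2% in replicates 1 to 3. Over the 24 genes on in bone-marrow macrophages the repopulating mean lay at a median of 3.96% (quartiles 1.41% and 10.8%), and 2 of them lay nearer the bone-marrow level. These genes were picked by the same 2 groups as the 6, so the figures describe them and test nothing.

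The genes whose levels followed each of the 6 most closely were sought over the 8 libraries, by Pearson's r of the log2 values. For Eva1a they were Serpine2 (r = 0.999), a secreted protease inhibitor, Cst3 (0.999), encoding cystatin C, and Tnfaip8l2 (0.998). Serpine2 had means of 62.3 normalised counts in bone-marrow macrophages, 2124 in repopulating and 5733 in wild-type microglia. For Timd4 they were Smpd1, the acid sphingomyelinase of lysosomes, Ip6k1 and Tmem55b. Tmc7 was followed by Pde3b, Pmp22 and Thrsp, and Yes1 by Sgce, Mboat7 and Cd37. Fscn1 was followed by Cxxc5, Il21r and Smap2, and Col14a1 by Tpm4, a tropomyosin, Ptma and Jag1, a Notch ligand, with r of 0.998, 0.998 and 0.997. The libraries fall into 3 groups, and 272 to 477 genes reached r of at least 0.95 with any one of the 6, so a high r chiefly reflects group and is given as a description.

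Of 10 other Src family kinases and regulators, 8 were tested. Frk and Blk were too low for that, bone-marrow macrophages holding 0.568, 0 and 0 normalised counts of Frk and 0.568, 1.06 and 1.76 of Blk. Of the 8, 5 were higher in repopulating microglia than in bone-marrow macrophages and none lower, with a median log2 difference of 0.74 against 0.00 over all genes (62.5% called, against 30.9% of all genes). Against wild type 1 was higher and 1 lower (median -0.05 against -0.02; 2 of 8 called, against 8.61% of all genes). Fyn, a kinase of adhesion signalling, stood at 110.4 ± 15.2 normalised counts in bone-marrow macrophages, 167 ± 19.9 in wild type and 326 ± 50.3 in repopulating microglia, log2 0.95 ± 0.20 above wild type (limma adjusted p = 0.0230). Fgr, a kinase of myeloid cells, stood at 91.5 ± 3.59, 372 ± 60.2 and 202 ± 16.2, -0.87 ± 0.17 against wild type (adjusted p = 0.0178). Pag1, a membrane adaptor that recruits the inhibitory kinase Csk, was at 989 ± 53.5, 3037 ± 294 and 3048 ± 545, and Src itself at 244 ± 58.9, 279 ± 52.1 and 501 ± 151. Both were higher in repopulating microglia than in bone-marrow macrophages (limma adjusted p = 9.995e-05 and 0.0179). Lyn, a kinase of myeloid cells, was abundant in all 8 libraries, at 3999.9 to 7439 normalised counts. Against wild type, no call was left without either wild-type library; Fyn was also lost without bone-marrow macrophage replicate 2 or repopulating replicate 1 (adjusted p = 0.0507 and 0.0683). Against bone-marrow macrophages the count fell to 3 without bone-marrow replicate 1 or 2 or repopulating replicate 1, Src being among those lost (0.0621 to 0.0765), and to 3 with equal totals (0.0612 for Src).

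In the TMC family, Tmc6 and Tmc8 were the members tested beside Tmc7. Tmc6 stood at 284 ± 15.3 in bone-marrow macrophages, 498 ± 32.2 in wild type and 398 ± 30.0 in repopulating microglia, higher than in bone-marrow macrophages (log2 0.48 ± 0.12, limma adjusted p = 0.0169). That call ended with equal totals (0.198) and without bone-marrow replicate 1 or 2 or repopulating replicate 1 (0.0573 to 0.0722). Tmc1, Tmc2, Tmc3, Tmc4 and Tmc5 did not exceed 7.39 normalised counts in any library. Of the relatives of Eva1a and autophagy genes, Eva1b stood at 53.3 ± 5.90, 122 ± 4.28 and 178 ± 32.5 in the same order of groups, log2 1.71 ± 0.19 higher in repopulating microglia than in bone-marrow macrophages (adjusted p = 0.000271), and Eva1c had no read in any library. Eva1b was the single one of 8 tested to pass against bone-marrow macrophages, as Becn1, which starts autophagosome formation, was against wild type (log2 0.55 ± 0.12, limma adjusted p = 0.0311). Each is 12.5% of the list, against 30.9% and 8.61% of all genes. The list's medians were 0.28 and 0.07, against 0.00 and -0.02 over all genes. Becn1 was not called without any one of 7 libraries, all but repopulating replicate 3 (adjusted p = 0.0627 to 0.228), and without that replicate, 3 of the 8 were called higher than in wild type and 4 higher and 1 lower than in bone-marrow macrophages, where 26.2% and 47.1% of all genes were called.

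Timd4 is one of several routes by which phagocytes recognise phosphatidylserine. Of 16 other genes of recognition and engulfment, 6 were higher and 3 lower in repopulating microglia than in bone-marrow macrophages (median log2 0.20; 56.25% called, against 30.9% of all genes), and 3 were higher and 1 lower than in wild type (0.18; 4 of 16, against 8.61%). Itgb3, the beta chain of an integrin that binds bridged apoptotic cells, had the smallest adjusted p of the list against bone-marrow macrophages. Bone-marrow macrophages held 30.7, 52.0 and 28.2 normalised counts, against 777 and 703 in wild type and 742, 601 and 657 in repopulating microglia, log2 4.18 ± 0.23 above bone-marrow macrophages (limma adjusted p = 1.24e-05). Mertk, a receptor kinase for apoptotic cells, and its ligand Pros1 were likewise higher than in bone-marrow macrophages, by 1.90 ± 0.18 and 1.99 ± 0.11 (adjusted p = 0.000138 and 1.58e-05). Stab1, a scavenger receptor, ran the other way, at 10005 ± 838 in bone-marrow macrophages, 1985 ± 130 in wild type and 4181 ± 946 in repopulating microglia, where it differed from both (log2 -1.28 ± 0.17 and 1.05 ± 0.19, limma adjusted p = 0.000648 and 0.0147). The other TIM genes differed from Timd4: Havcr1 and Timd2 had no read in any library, and Havcr2, encoding TIM-3, stood at 1204 normalised counts or more in all 8. Without wild-type replicate 1 or 2, 1 gene was called higher than in wild type and none lower, and Stab1 was not among the calls (adjusted p = 0.153 and 0.0892). Without repopulating replicate 3, 5 were higher and 3 lower than in wild type, in a fit that called 26.2% of all genes.

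The other collagens listed, all of fibril-forming or fibril-associated types, were low, the highest value being 16.1 normalised counts of Col9a2 in repopulating replicate 3. Collagens of other types were not examined. Of 17 other collagen and fibril-partner genes in the table, 16 were too low to be tested, among them Col12a1, a collagen of the same fibril-associated class, with 1 read in 8 libraries. Bgn, encoding the proteoglycan biglycan, was tested and did not differ past the threshold in either comparison (4.27 and 28.5 normalised counts in wild type, 5.67, 5.90 and 28.8 in repopulating microglia and 1.59 ± 1.08 in bone-marrow macrophages, limma adjusted p = 0.925 and 0.0750).

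The other fascins, Fscn2 and Fscn3, had at most 1 read in a library. Of 10 tested genes of actin bundling and filopodia, 2 were higher and 4 lower in repopulating microglia than in bone-marrow macrophages (median log2 -0.46; 6 of 10 called, against 30.9% of all genes), and 2 were higher than in wild type (median 0.19; 2 of 10, against 8.61%). Lcp1, the plastin of leukocytes, was at 10993 ± 313 in bone-marrow macrophages, 5966 ± 225 in wild type and 6946 ± 347 in repopulating microglia (log2 -0.66 ± 0.11 against bone-marrow macrophages, limma adjusted p = 0.00235). The formin genes Diap1 and Diap3 were also lower than in bone-marrow macrophages, by -0.71 ± 0.16 and -2.79 ± 0.46 (adjusted p = 0.00955 and 0.00222). Myo10, a myosin of filopodial tips, stood at 4.27 and 6.10 in wild type, 35.9, 28.0 and 58.7 in repopulating microglia and 25.004, 36.1 and 37.9 in bone-marrow macrophages, log2 2.71 ± 0.39 above wild type (limma adjusted p = 0.00668). Myo10 was not called without wild-type replicate 1 (0.0875), and Diap1, log2 0.70 ± 0.18 above wild type (0.0439), was not called without any one library but repopulating replicate 3 (0.0766 to 0.327). Without wild-type replicate 1 none of the 10 was called against wild type, and without each of the others but repopulating replicate 3 the count was 1. Without the last, 3 were higher and 1 lower than in wild type, in a fit that called 26.2% of all genes. Against bone-marrow macrophages, leaving out bone-marrow replicate 3 gave none higher and 3 lower, and without repopulating replicate 3 there were 3 higher and 6 lower. With equal totals none was higher and 5 were lower.

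**Figure D4:**
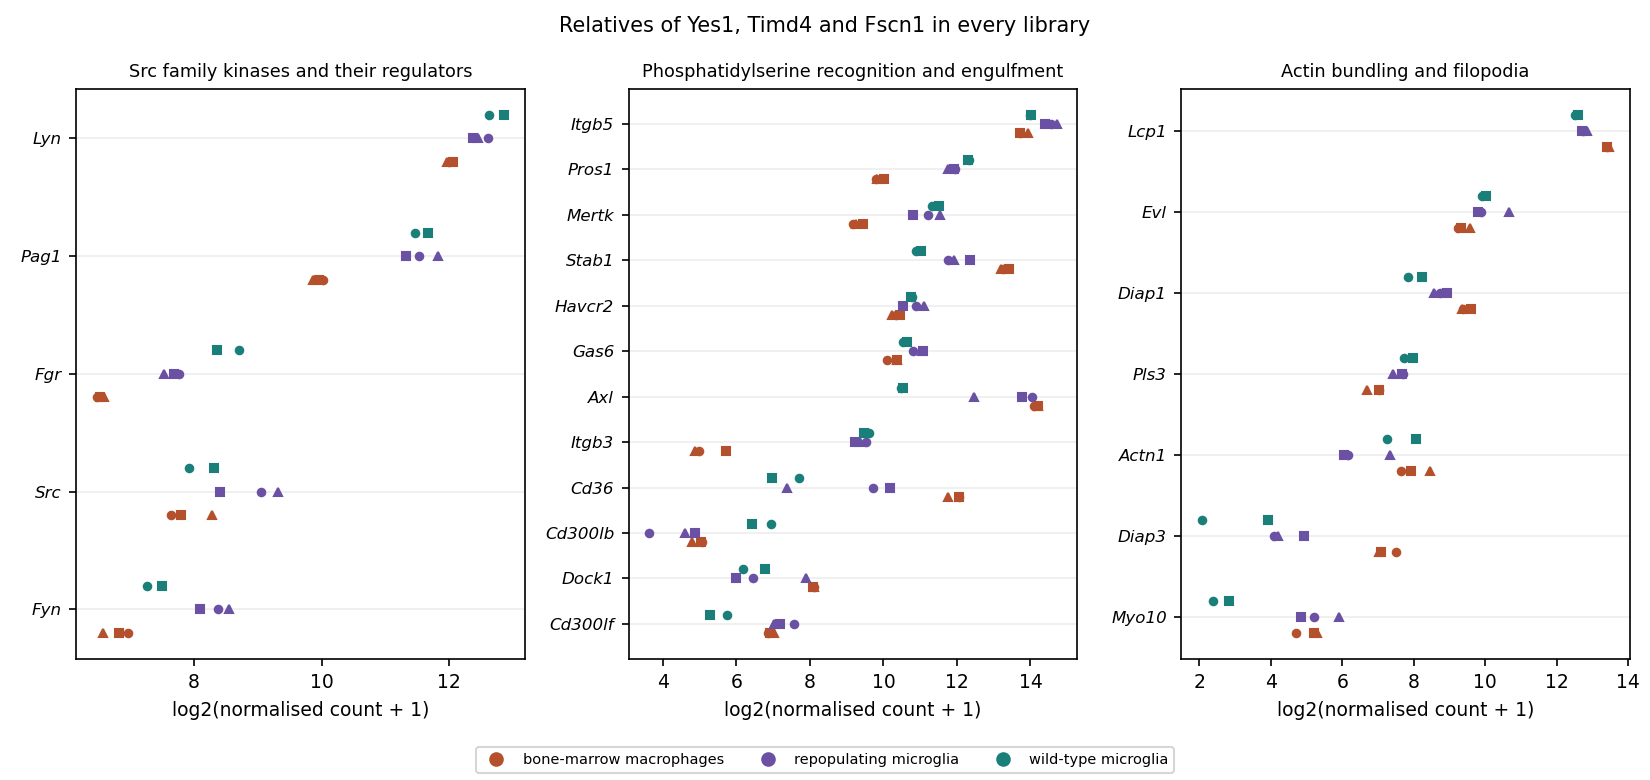
Levels of those relatives of Yes1, Timd4 and Fscn1 that passed against wild type or bone-marrow macrophages, as log2(normalised count + 1) in every library, coloured by group, with circles, squares and triangles for replicates 1, 2 and 3. Itgb3 shows bone-marrow macrophages apart at 28.2 to 52.0 normalised counts, whereas for Myo10 the wild-type libraries lie apart at 4.27 and 6.10.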

How the data were processed

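RNA was sequenced from 8 mouse libraries made with a TruSeq kit that does not mark strand, per the labels' protocols. The submitters' processing notes name mm10 as the build, and as tools DESeq 1.14.0, HTSeq, Bowtie2 2.1.0.0 and TopHat2 2.0.10 without their roles. The deposited values are a signal, read counts per gene over a library-wide size factor set by the authors. All values above 0 (100% within 0.01 reads) were whole multiples of 1 read's value, so whole reads were recovered.

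Genes reaching 10 normalised counts in 2 or more libraries were tested with limma 3.58.1 (R 4.3.3) on log2(normalised count + 1), in 1 model over 3 groups with a variance trend; the scripts were checked on simulated data. Alternatives, with edgeR 4.0.16 and DESeq2 1.42.0 among them, are in the closing section. Intervals and floors (3 reads over a group) cover counting error only, since reads carried no molecular identifiers. Gene coordinates are from GENCODE vM21. No replicates were merged, as all pairs differed beyond counting noise. Repopulating replicate 3 stood furthest apart, with chi-square over degrees of freedom of 58.2 and 61.2 against replicates 1 and 2. Between replicates 1 and 2 it was 11.0, between the wild-type libraries 24.2, and among bone-marrow macrophages 7.05 to 8.62. Members, lists and motifs were chosen with earlier results of these data known. Named relatives were up to 4 per list by smallest adjusted p against either group, and the 3 likest genes per member had a group mean of at least 100. Figures used matplotlib 3.10.9.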

Additional observations from a re-analysis of the deposited data

How the results depend on the processing

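Against bone-marrow macrophages, each of the 6 genes kept its direction and stayed past the threshold in every alternative run for it (21, or 20 for Timd4, which a minimum of 50 normalised counts removes). The bone-marrow level helped to choose these genes, so this agreement was largely fixed beforehand and carries little by itself. Against wild-type microglia all 6 kept their direction, which was largely fixed beforehand for Col14a1, chosen for its low wild-type level. For the other genes, chosen as on in wild type, the lower direction was favoured by the choice. Tmc7 and Yes1 passed in none of 21 alternatives (limma, edgeR or DESeq2 adjusted p = 0.266 to 0.937 and 0.0816 to 0.545). Eva1a stayed past it in 9 of 21, Col14a1 passed in 5, Fscn1 in 3 and Timd4 in 2 of 20. With only the 2 groups compared, none of the 6 genes was called against wild type. Nor was any tested relative in any of the lists, among them Fyn, Fgr, Becn1, Stab1, Myo10 and Diap1. Over all genes, repopulating against wild-type microglia gave 82 calls with only the 2 groups compared and 1625 with DESeq2, and between 67 (without wild-type replicate 1) and 2969 (without repopulating replicate 3) when 1 library was left out. Leaving out 1 library gave 2212 to 5335 calls for repopulating microglia against bone-marrow macrophages and 2821 to 6992 for bone-marrow macrophages against wild type. The 84 on-off genes became 84 to 92 without 1 library. Whether replicate numbers pair the samples could not be settled from how libraries deviated from their group means. Same-numbered repopulating and wild-type libraries gave r = 0.24 and -0.24 for replicates 1 and 2. The 2 wild-type libraries deviate as mirror images by construction, so opposite signs there cannot show that pairing was absent. With the replicate number as a block, 733 genes were called against wild type, among them Eva1a, Col14a1 and Fscn1 (limma adjusted p = 0.0328 and 0.0304 for the last 2). Depth limits Timd4 most, with 7 to 12 reads in the repopulating libraries.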
